A study of Mus musculus with 14 samples.

Results

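Genes of cholesterol and fatty acid synthesis were followed in mouse cortex after thrombosis of the cerebral venous sinuses (CVST), a clot in the large veins that drain the brain. The 33 genes were listed by name and role. They comprise 18 enzymes of sterol synthesis, 5 regulators of the SREBP system, the sterol carrier Stard4, the phosphatidate phosphatase Lpin1 and 8 enzymes of fatty acid synthesis, elongation and desaturation. All 33 were found in the count table of 55359 genes, and all 33 were among the 16918 genes that passed the filter on low counts. RNA was sequenced from the cortex of both hemispheres as whole tissue, in 14 libraries of 3 groups: 4 from sham mice, 5 from mice 2 d after CVST (CVST-2d) and 5 from mice 7 d after CVST (CVST-7d). The labels state neither the strain, age and sex of the mice nor when sham cortex was taken, and they number the libraries without saying that each is a separate mouse. The p-values therefore measure the spread between these libraries, which may be technical.

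Sterol synthesis starts from acetyl-CoA and runs through mevalonate to squalene, which is closed into the ring of lanosterol and then trimmed to cholesterol. Fatty acids are built from citrate-derived acetyl-CoA and are then elongated and desaturated. The transcription factors SREBP1 and SREBP2, encoded by Srebf1 and Srebf2, switch on both routes when membrane sterol is low, and the escort protein Scap and the retention proteins Insig1 and Insig2 set how much of each factor reaches the nucleus. The brain makes its own cholesterol because lipoproteins hardly cross the blood-brain barrier, and myelin holds much of it. Oxysterols, the hydroxylated forms of cholesterol, activate the nuclear receptors LXRα and LXRβ, which raise sterol export genes and Srebf1.

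Promoter windows of RefSeq on build GRCm38.p6, each from 250 bases before to 50 bases after a transcription start, were matched by symbol for 26 of the 33 genes, in 34 windows. No window was used for Fads1, Fdft1, Fdps, Scd1, Scd2, Sqle and Stard4. The build differs from the mm39 build named in the submitters' processing notes, so the coordinates are those of GRCm38.p6 only. Both strands were searched for CCAAT, the box bound by NF-Y, which acts beside SREBP, and for TCACNCCAC, a form of the sterol regulatory element. A CCAAT box was present in 14 of the 15 sterol enzymes with a window (93.3%), Acat2 being the exception, and in 6 of the 11 other genes of the set (54.5%). Among all 27025 genes with a window the share was 41.1%, and among the 12385 that were also tested it was 42.5%. GGGCGG, the GC box, was in 14 of the 15 sterol enzymes, against 38.2% of all genes with a window and 65.5% of those tested. TCACNCCAC was found in Hmgcs1 alone of the 26 genes, against 1.44% of all genes with a window. CACGTG, the E-box, was in 3 of the 15 sterol enzymes, against 8.09% of all genes with a window and 11.1% of those tested. None of the 26 genes with a window had an exact pair of AGGTCA sites 4 bases apart, a strict form of the LXR element. Only 4 of all 27025 genes with a window had it (0.0148%). With so few matches anywhere, its absence here does not show that these genes lack LXR sites. CCAAT and GGGCGG can share bases (ATTGG followed by GCGG holds both), and each was counted on its own. A match is a run of letters, not a bound site. The 250 bases before the start are given for 6 of the 26 genes as examples, with CCAAT or its complement ATTGG and TCACNCCAC in capitals. Among them, Hmgcs1, Idi1 and Msmo1 were not called in any comparison by edgeR, DESeq2 or voom. The windows of Fads2, Acat2, Acaca, Lpin1 and Scap, not printed, hold no CCAAT box. Of these, Acaca, Lpin1 and Scap were not called in any comparison by edgeR, DESeq2 or voom. Insig2 and Srebf1, both called by DESeq2 in CVST-7d against CVST-2d, do have a window with a CCAAT box. Hmgcs1 holds 3 CCAAT boxes and the only sterol element, Idi1, Mvd and Ebp hold 2 boxes, Msmo1 holds 3, and Elovl6, the gene with the smallest p, holds none.
Hmgcs1 chr13:119690101-119690350 (plus strand): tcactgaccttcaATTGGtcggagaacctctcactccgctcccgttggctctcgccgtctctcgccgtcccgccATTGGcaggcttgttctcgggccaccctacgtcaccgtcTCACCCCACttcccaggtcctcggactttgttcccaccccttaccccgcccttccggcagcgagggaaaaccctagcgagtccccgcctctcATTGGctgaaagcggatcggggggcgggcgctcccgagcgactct
Idi1 chr13:8885356-8885605 (plus strand): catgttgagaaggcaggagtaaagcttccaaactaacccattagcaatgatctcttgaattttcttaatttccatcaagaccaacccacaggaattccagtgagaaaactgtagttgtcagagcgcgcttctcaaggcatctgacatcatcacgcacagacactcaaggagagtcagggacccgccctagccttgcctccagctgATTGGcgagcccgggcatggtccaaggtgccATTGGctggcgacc
Mvd chr8:122443423-122443672 (minus strand): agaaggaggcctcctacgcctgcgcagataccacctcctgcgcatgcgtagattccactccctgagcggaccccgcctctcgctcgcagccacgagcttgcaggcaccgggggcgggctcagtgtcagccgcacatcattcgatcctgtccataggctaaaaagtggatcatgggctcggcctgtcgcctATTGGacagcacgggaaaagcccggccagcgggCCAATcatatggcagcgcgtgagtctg
Msmo1 chr8:64733579-64733828 (minus strand): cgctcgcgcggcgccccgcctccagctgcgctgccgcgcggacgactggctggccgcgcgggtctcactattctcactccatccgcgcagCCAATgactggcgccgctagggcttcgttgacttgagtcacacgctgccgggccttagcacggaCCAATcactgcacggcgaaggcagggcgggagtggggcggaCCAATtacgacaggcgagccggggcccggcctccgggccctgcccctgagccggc
Ebp chrX:8193513-8193762 (minus strand): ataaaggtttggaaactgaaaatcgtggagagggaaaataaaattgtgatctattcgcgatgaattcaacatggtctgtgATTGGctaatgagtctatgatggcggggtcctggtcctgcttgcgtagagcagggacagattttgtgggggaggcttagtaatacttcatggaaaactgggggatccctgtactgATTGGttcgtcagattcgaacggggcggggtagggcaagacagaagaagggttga
Elovl6 chr3:129532136-129532385 (plus strand): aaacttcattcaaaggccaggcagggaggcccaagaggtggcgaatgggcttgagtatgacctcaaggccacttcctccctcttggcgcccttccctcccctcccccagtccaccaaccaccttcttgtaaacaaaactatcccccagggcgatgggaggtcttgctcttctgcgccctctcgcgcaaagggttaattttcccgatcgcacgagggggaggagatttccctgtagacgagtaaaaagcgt

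Gene counts summed to 14.7 M to 20.8 M (mega) per library, and libraries of 1 group differed by far more than counting noise (lowest chi-square per degree of freedom 8.07). Tissue content differed between libraries. Neuronal markers were high throughout, with Snap25 at 2070 CPM (counts scaled to a common library size) and Slc17a7 at 1176 CPM on average in sham. Markers of striatum and choroid plexus varied within each group, and Ttr, the transthyretin of choroid plexus, ran from 3.55 to 793 CPM in the 4 sham libraries. Both lists also differed between groups, with every marker lower than sham in fitted level at both times and 0 called. The median log2 difference from sham was -1.02 at 2 d and -0.92 at 7 d for striatum. For choroid plexus it was -0.83 and -2.05. Relative to sham, the mean log2 level of 8 macrophage markers was 1.43 to 4.08 in CVST-2d and 0.26 to 5.42 in CVST-7d, and that of 8 microglial markers was -0.62 to 0.62 and 0.27 to 1.43. Of the macrophage markers, 2 were called higher in CVST-2d and 6 in CVST-7d, and Arg1 was at or near 0 in sham. CVST-2d replicate 5 stood apart from its group, with the lowest macrophage, microglial and proliferation levels of the 5. CVST-7d replicate 2 did so with a macrophage level of 0.26. In whole tissue, fewer cells of a type and less RNA per cell cannot be told apart.

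Within the sham cortex the desaturase Scd2, which makes oleate-type fatty acids, was the most abundant of the 33 genes per gene length, at 255 ± 17.7 FPKM (SD, n = 4). Hmgcs1, the synthase that makes HMG-CoA for the mevalonate route, followed at 103 ± 7.26 FPKM. Msmo1 (65.2 ± 7.11), Fads1 (61.2 ± 0.719), Fasn (57.7 ± 3.13), Fads2 (55.9 ± 8.65) and Srebf2 (53.5 ± 1.93) came next, with neighbouring means closer than the larger of their SDs in all pairs but Fads1 and Fasn. The lowest were Stard4 (7.00 ± 1.00), Hsd17b7 (5.93 ± 0.918) and Lpin1 (5.11 ± 0.153). Srebf2 was thus well above Srebf1, which was at 9.10 ± 0.690 FPKM. The gene lengths behind the deposited FPKM differed between libraries by up to 1.68 times (Lss), so only levels are compared on that scale and differences between groups are given in CPM.

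**Figure D1:**
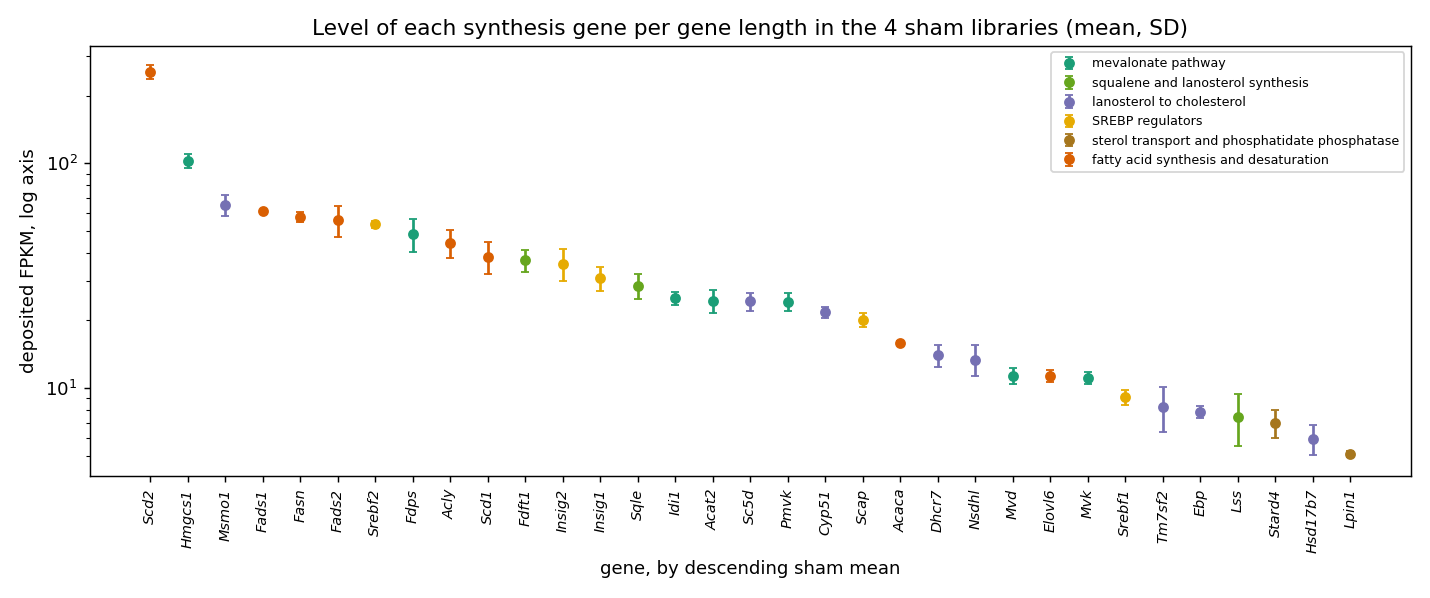
Deposited FPKM of the 33 genes in the 4 sham libraries on a log axis, as mean and SD, ordered from high to low and coloured by role. Scd2 stands above Hmgcs1, and Lpin1 is lowest at 5.11 FPKM.

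Of the 33 synthesis genes 1 was called by edgeR. In CVST-2d against sham, 0 of 33 were called by edgeR's quasi-likelihood test at an adjusted p under 0.05, against 3.69% of all genes tested. In CVST-7d against sham 1 of 33, Elovl6, was called, and lower, against 4.23% of all genes in either direction and 0.81% lower. In CVST-7d against CVST-2d 0 of 33 were called, against 2.71%. At an unadjusted p under 0.05 the counts were 4, 8 and 14 of 33 (21.5%, 19.5% and 20.8% of all genes tested). DESeq2's Wald test called 1528, 1386 and 1280 of the 16918 genes tested in the 3 comparisons. Of the 33 it called 3, 3 and 6: Ebp, Elovl6 and Fads1 at 2 d, Elovl6, Mvd and Srebf1 at 7 d, and Ebp, Srebf1, Insig2, Scd2, Fads1 and Fads2 between the times. limma's voom with sample weights called 2599, 861 and 1234 of the 16918 genes tested. Of the 33 it called 3, 1 and 3: Ebp, Elovl6 and Fads2 at 2 d, Elovl6 at 7 d, and Ebp, Fads1 and Fads2 between the times. The median log2 fold change of the 33 was -0.05, -0.12 and -0.13, beside -0.01, -0.01 and 0.01 for all genes, and without CVST-7d replicate 4 the 2 medians that involve CVST-7d were -0.03 and -0.03. The 2 comparisons with sham share their sham libraries, and the 2 that involve CVST-7d share those libraries.

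**Figure D2:**
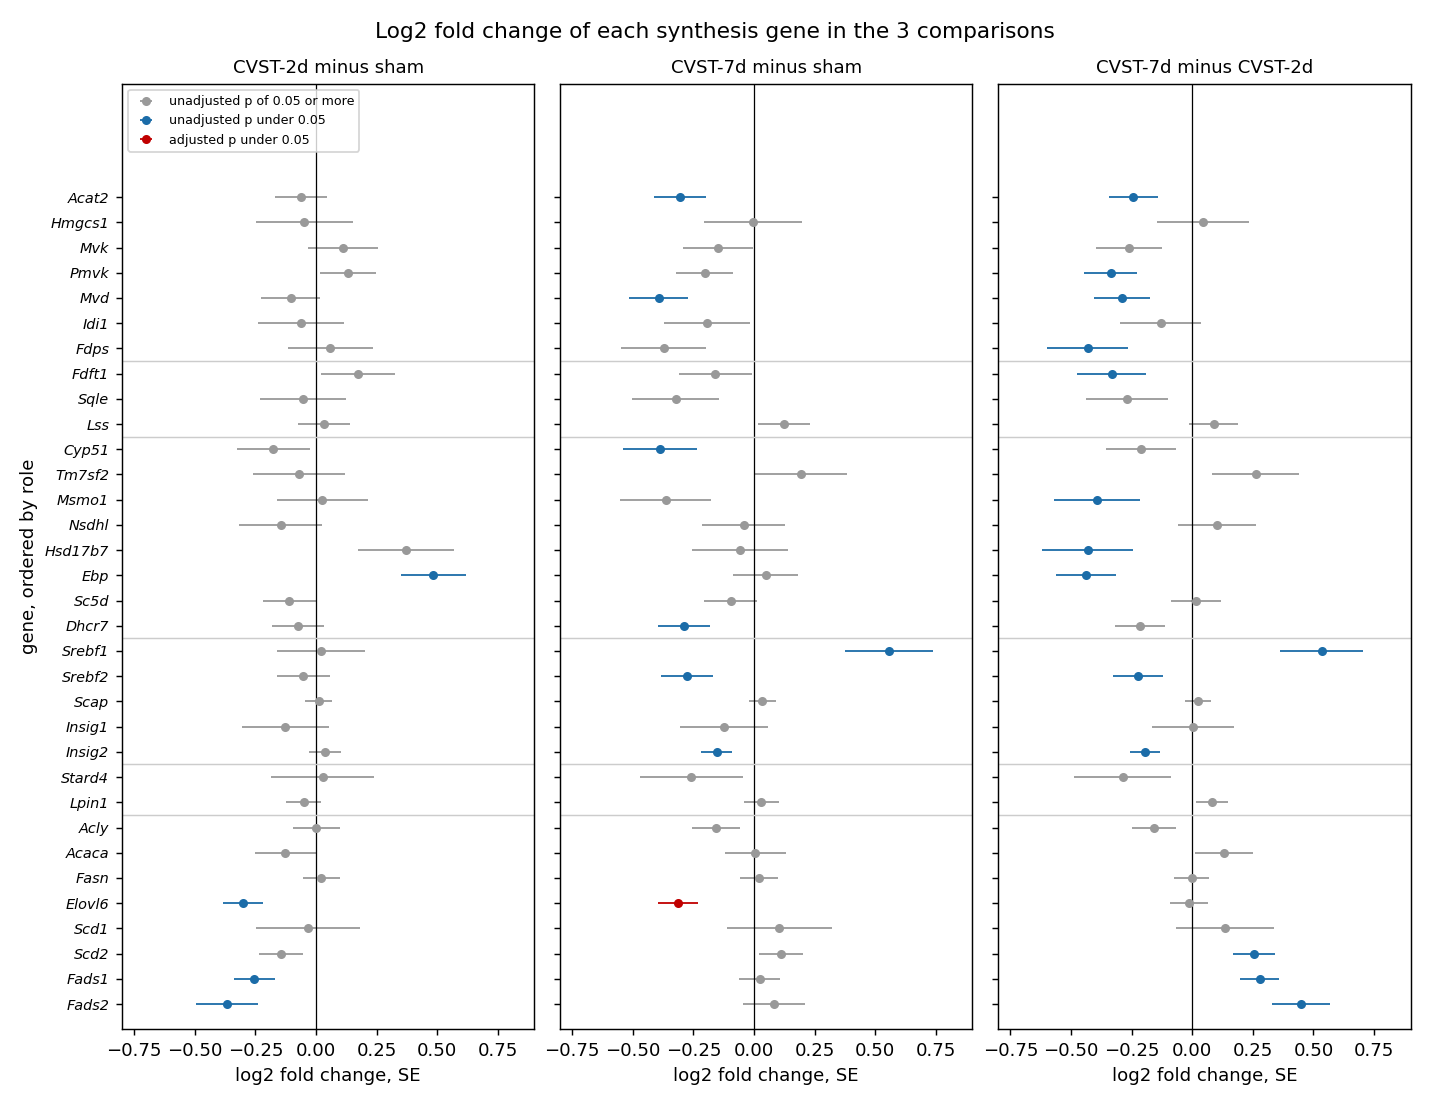
Log2 fold change with its SE for each gene in the 3 comparisons, ordered by role, with grey for an unadjusted p of 0.05 or more, blue for an unadjusted p under 0.05 and red for an adjusted p under 0.05, all in edgeR. Only Elovl6 in CVST-7d minus sham is red, and most blue points in CVST-7d minus CVST-2d lie below 0 among sterol enzymes and above 0 among desaturases.

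Of the 5 regulators 0 were called by edgeR in any comparison, and DESeq2 called 0, 1 and 2. At an unadjusted p under 0.05 in edgeR there were 0, 3 and 3 (21.5%, 19.5% and 20.8% of all genes tested). Srebf1, whose protein drives mainly fatty acid genes, was at 33.1, 31.0, 30.9 and 34.3 CPM in sham replicates 1 to 4. Its level in CVST-2d replicates 1 to 5 was 29.8, 40.8, 31.7, 31.9 and 29.6 CPM. In CVST-7d replicates 1 to 5 it was 39.7, 34.3, 39.6, 73.7 and 50.03 CPM. The lowest CVST-7d library and the highest sham library met at 34.3 CPM, so the groups touched without overlapping at the precision of the table. Separation upwards at 7 d held for Srebf1 alone of the 33 genes and for 5.8% of all genes tested. The log2 difference from sham was 0.56 ± 0.18 (SE) at 7 d, with an adjusted p of 0.107 in edgeR, and that from CVST-2d was 0.53 ± 0.17 with an adjusted p of 0.102. Without CVST-7d replicate 2 the 7 d difference was called (log2 0.66, adjusted p 0.0408 in edgeR), and over all single libraries left out its adjusted p ran from 0.0408 to 0.235. Without CVST-7d replicate 4, the highest, the log2 difference was 0.34 against sham and 0.32 against CVST-2d. Part of Srebf1 shares 109 exon bases with Rai1 on the other strand in GENCODE vM21, and whether reads were counted by strand is not given. Of the 33 genes, 11 share exon bases with another gene in that annotation. For 3 of them, Srebf1, Fdft1 and Cyp51, that is a protein-coding gene on the other strand. Hmgcs1 (557 bases) and Elovl6 (34 bases) each overlap an antisense gene.

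Srebf2, whose protein drives mainly sterol genes, had a lower mean at 7 d, from 215 ± 6.97 CPM (SD, n = 4) in sham to 178 ± 30.0 CPM (SD, n = 5) in CVST-7d. That log2 difference was -0.28 ± 0.11, with an adjusted p of 0.169 in edgeR, and it was not called. The ratio of Srebf1 to Srebf2 CPM was 0.138 to 0.164 in sham, 0.141 to 0.213 in CVST-2d and 0.175 to 0.549 in CVST-7d, so the 7 d range lay above the sham range. Both genes were measured in the same libraries, and the ratio takes its spread from both.

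Insig2, which holds SREBP in the endoplasmic reticulum, was at 42.5, 44.2, 40.5 and 46.7 CPM in the sham replicates. Its CVST-2d values were 43.3, 42.6, 48.4, 44.6 and 44.4 CPM. The CVST-7d values, 40.3, 41.4, 39.2, 37.7 and 36.7 CPM, were all below those of CVST-2d but overlapped with sham. The log2 difference between the times was -0.19 ± 0.06 with an adjusted p of 0.0997 in edgeR. Insig1, itself a classic SREBP target, was at 73.1 ± 10.2 CPM in sham, 66.9 ± 11.4 in CVST-2d and 67.1 ± 17.7 in CVST-7d. Scap, the escort, was at 76.1 ± 3.52, 76.7 ± 2.04 and 78.0 ± 2.90 CPM (SD, n = 4, 5 and 5).

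In the mevalonate pathway, from acetyl-CoA to farnesyl diphosphate, 0 of 7 enzymes were called by edgeR in any comparison, and DESeq2 called 1, Mvd at 7 d. At an unadjusted p under 0.05 in edgeR there were 0, 2 and 4 (21.5%, 19.5% and 20.8% of all genes tested). The median log2 fold change of the 7 enzymes was -0.05 in CVST-2d and -0.20 in CVST-7d against sham, and -0.26 between the times. Without CVST-7d replicate 4 the 7 d median was -0.12 and without replicate 2 it was -0.32, and the 2 d median was 0.02 without sham replicate 2. Mvd, the decarboxylase that makes isopentenyl diphosphate, was at 16.3, 19.3, 16.6 and 17.8 CPM in sham. It was at 17.6, 16.4, 15.6, 17.4 and 14.3 CPM in CVST-2d and at 14.6, 14.8, 15.2, 10.3 and 11.6 CPM in CVST-7d. All 5 CVST-7d libraries lay below all 4 sham libraries, which held for 2 of the 33 genes (Mvd and Elovl6) and for 3.87% of all genes tested. The log2 difference was -0.39 ± 0.12 with an adjusted p of 0.0834 in edgeR.

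Pmvk, the kinase that acts before Mvd, was at 21.2, 22.6, 25.1 and 24.4 CPM in sham. In CVST-2d it was at 28.7, 24.0, 24.4, 25.2 and 25.4 CPM, and in CVST-7d at 17.6, 23.8, 22.6, 15.6 and 21.6 CPM. The CVST-7d values lay below all CVST-2d values, as those of Insig2 did. Such separation downwards between the times held for 2 of the 33 genes and for 2.13% of all genes tested. The log2 difference was -0.34 ± 0.11 with an adjusted p of 0.105 in edgeR.

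Acat2, the cytosolic thiolase that starts the route, was at 47.9, 45.2, 43.2 and 55.0 CPM in sham. In CVST-2d it was at 44.0, 48.8, 43.7, 44.4 and 48.3 CPM, and in CVST-7d at 38.1, 46.6, 40.5, 30.0 and 38.6 CPM. Of the CVST-7d libraries, 4 were below all sham libraries and replicate 2 was within their range. The log2 difference from sham was -0.30 ± 0.11 with an adjusted p of 0.127 in edgeR, and leaving out CVST-7d replicate 2 gave -0.37 and a call at 0.0463, in a range of 0.0463 to 0.338 over all single libraries left out. The other 4 enzymes were not separated from sham: Hmgcs1, Mvk, the isomerase Idi1 and Fdps, which makes farnesyl diphosphate. Hmgcs1 had close means in sham (318 ± 25.9 CPM) and CVST-7d (317 ± 103 CPM) but a wider spread at 7 d, from 169 to 422 CPM. Fdps was at 49.0 ± 7.67, 51.0 ± 6.48 and 37.9 ± 9.72 CPM, and it shares 1124 exon bases with the annotated gene Gm43738 on the same strand.

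Squalene and lanosterol synthesis had 0 of 3 enzymes called by edgeR or DESeq2. At an unadjusted p under 0.05 in edgeR there were 0, 0 and 1 (21.5%, 19.5% and 20.8% of all genes tested). Sqle, the epoxidase that is a control point of the route, was at 73.6 ± 8.82 CPM in sham, 70.9 ± 8.57 in CVST-2d and 58.9 ± 17.3 in CVST-7d, a log2 difference of -0.32 ± 0.18 at 7 d with an adjusted p of 0.347 in edgeR. Without CVST-7d replicate 4 that difference was -0.18. Fdft1, the squalene synthase, was at 98.1 ± 9.56, 111 ± 7.59 and 87.9 ± 21.8 CPM. Its exons share 774 bases with Ctsb, a lysosomal protease gene on the other strand, so its counts are uncertain without strand. Lss, which closes the ring, was at 33.3 ± 2.22, 34.1 ± 3.73 and 36.3 ± 5.19 CPM.

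Between lanosterol and cholesterol 0 of 8 enzymes were called by edgeR. At an unadjusted p under 0.05 in edgeR there were 1, 2 and 3 (21.5%, 19.5% and 20.8% of all genes tested). Ebp, the isomerase that moves the double bond of the sterol ring, came nearest and was the only one DESeq2 called. Sham replicates held 11.3, 12.5, 11.4 and 12.3 CPM of Ebp. CVST-2d replicates held 19.2, 17.8, 14.8, 18.4 and 12.9 CPM, all above sham, and CVST-7d replicates held 9.90, 13.1, 11.7, 12.1 and 14.6 CPM. Such separation upwards at 2 d held for 1 of the 33 genes and for 5.65% of all genes tested. The log2 difference was 0.48 ± 0.13 at 2 d with an adjusted p of 0.0555 in edgeR, 0.05 ± 0.13 at 7 d with 0.887, and -0.44 ± 0.12 between the times with 0.0727. Leaving out CVST-2d replicate 5, the lowest of its group, or CVST-7d replicate 5 brought the 2 d difference to a call (adjusted p 0.0120 and 0.0399), and over all single libraries left out it ran from 0.0120 to 0.153. Without CVST-2d replicate 5 the difference between the times was called as well (log2 -0.51, adjusted p 0.020 in edgeR).

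Hsd17b7, the ketoreductase of the same stretch, was at 25.7 ± 4.45 CPM in sham, 33.2 ± 8.70 in CVST-2d and 24.7 ± 5.59 in CVST-7d. Its highest value, 47.0 CPM, was in CVST-2d replicate 4. Cyp51, which removes the first methyl group of lanosterol, was at 82.2 ± 5.20, 72.7 ± 13.95 and 62.9 ± 12.2 CPM, a log2 difference of -0.39 ± 0.15 at 7 d with an adjusted p of 0.170 in edgeR. Its exons share 166 bases with Akap9 on the other strand. Msmo1 (108 ± 10.4, 110 ± 21.5 and 83.8 ± 22.1 CPM) and Dhcr7, the last reductase (30.4 ± 2.73, 28.8 ± 2.53 and 24.9 ± 3.38 CPM), had 7 d means below sham with overlapping ranges. Nsdhl, Sc5d and Tm7sf2 lay between -0.14 and 0.19 from sham on the log2 scale at both times, and Tm7sf2 shares 532 exon bases with Vps51. Over the 18 sterol enzymes the median log2 fold change was -0.05 in CVST-2d, -0.18 in CVST-7d and -0.25 between the times, and at an unadjusted p under 0.05 1 was higher at 2 d, 4 were lower at 7 d and 8 were lower at 7 d than at 2 d. All genes tested gave 12.2% higher, 7.89% lower and 10.6% lower at the same threshold.

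Stard4, which carries cholesterol between membranes, was at 34.2 ± 4.67, 34.8 ± 4.14 and 28.6 ± 9.93 CPM in the 3 groups. Lpin1, which makes diacylglycerol, was at 26.8 ± 0.760, 25.8 ± 1.65 and 27.3 ± 1.62 CPM. Neither was called.

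Elovl6, the elongase that extends palmitate to stearate, was the only gene of the set called by edgeR. It was at 59.9, 67.0, 65.1 and 59.8 CPM in sham. In CVST-2d it was at 43.9, 56.8, 51.2, 55.7 and 48.2 CPM, and in CVST-7d at 52.8, 52.8, 50.6, 52.4 and 44.7 CPM. All 10 CVST libraries lay below all 4 sham libraries. Separation downwards from sham at 2 d held for Elovl6 alone of the 33 genes and for 3.06% of all genes tested. At 7 d it held for Elovl6 and Mvd and for 3.87% of all genes tested. The share of all genes separated at both times was not computed. The log2 difference was -0.31 ± 0.08 at 7 d, called at an adjusted p of 0.0467 in edgeR, and -0.30 ± 0.08 at 2 d, not called at 0.0575. The 7 d call sat at the threshold: it ended when any of the 4 sham libraries, CVST-2d replicate 3 or CVST-7d replicates 1, 3, 4 or 5 was left out, with adjusted p from 0.0336 to 0.140 over all single libraries left out, while the log2 difference stayed between -0.34 and -0.27. At 2 d, leaving out CVST-7d replicate 5 gave a call at 0.0411, in a range of 0.0411 to 0.178. Between the times the log2 difference was -0.02 ± 0.08. Reactive astrocyte markers were higher at both times, by a mean log2 of 2.23 to 3.91 in CVST-2d and 1.27 to 3.04 in CVST-7d, with 5 and 4 of 6 called; their part in the values of Elovl6 was not tested.

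**Figure D3:**
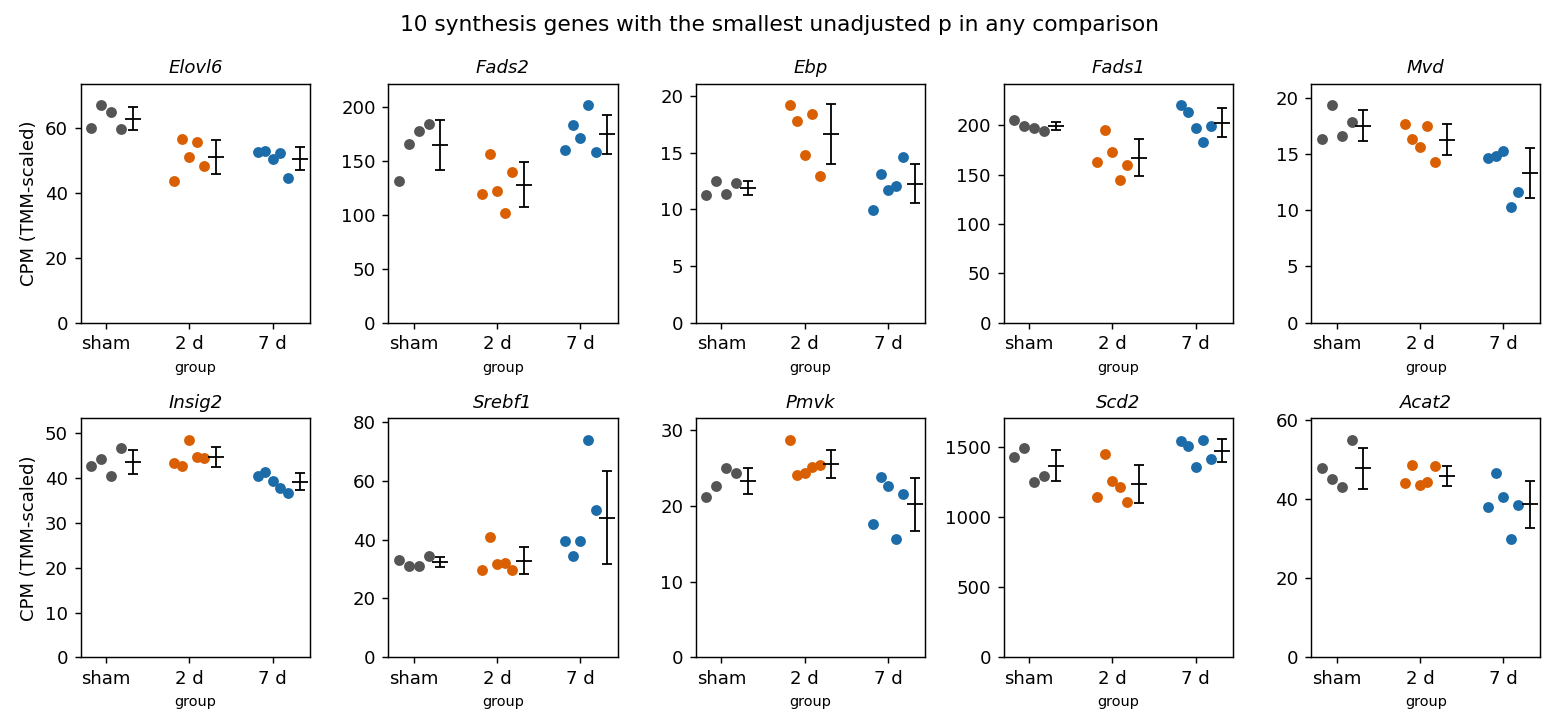
CPM in each library (points, replicates 1 to 5 from left to right) with mean and SD (bars) for the 10 genes of smallest unadjusted p. Elovl6 lies below sham in all 10 CVST libraries, Ebp above sham in the 5 CVST-2d libraries, and Fads2 of CVST-7d above all CVST-2d libraries.

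The desaturases Fads1 and Fads2, which make long polyunsaturated fatty acids from dietary precursors, had their lowest means in CVST-2d and were not called by edgeR. Fads2 was at 132, 166, 178 and 185 CPM in sham, at 119, 157, 122, 102 and 140.2 CPM in CVST-2d and at 160.4, 183, 171, 202 and 158 CPM in CVST-7d. Every CVST-7d library was above every CVST-2d library, which held for 1 of the 33 genes and for 2.28% of all genes tested. The log2 difference of Fads2 was -0.37 ± 0.13 at 2 d against sham (adjusted p 0.116 in edgeR) and 0.45 ± 0.12 between the times (0.0604). Leaving out sham replicate 1, CVST-2d replicate 2 or CVST-2d replicate 5 brought the difference between the times to a call, at 0.0493, 0.0322 and 0.0379, and over all single libraries left out it ran from 0.0322 to 0.156.

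Fads1 was at 205, 199, 198 and 195 CPM in sham. In CVST-2d it was at 163, 195, 173, 145 and 159.6 CPM and in CVST-7d at 220.1, 213, 198, 183 and 199 CPM. Only CVST-2d replicate 2 reached the sham range. The log2 difference was -0.25 ± 0.08 at 2 d (adjusted p 0.103 in edgeR) and 0.28 ± 0.08 between the times (0.0743), and without CVST-2d replicate 2 the latter was called at 0.0322, in a range of 0.0322 to 0.173. DESeq2 called Fads1 at 2 d (adjusted p 0.0406) and both genes between the times (0.0132 for Fads1 and 0.0105 for Fads2), and voom called Fads2 at 2 d (0.025) and both between the times (0.0449 and 0.0276). The 2 genes are neighbours in the genome and were measured in the same libraries.

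Scd2 was at 1429, 1490.4, 1252 and 1296 CPM in sham, 1145, 1452, 1261, 1218 and 1109.5 CPM in CVST-2d, and 1543, 1509, 1357, 1549.5 and 1418 CPM in CVST-7d. The groups overlapped. Its log2 difference between the times was 0.25 ± 0.09 with an adjusted p of 0.114 in edgeR and 0.0358 in DESeq2. Marker lists of oligodendrocyte precursors, astrocytes, myelin and microglia also had higher median levels at 7 d than at 2 d, but reactive astrocyte markers went the other way. The mean log2 level of the 6 reactive markers relative to sham was 2.23 to 3.91 in CVST-2d and 1.27 to 3.04 in CVST-7d. All 6 had a lower fitted level at 7 d than at 2 d. Of 8 microglial markers, 6 already had a fitted level above sham at 2 d. All 8 had a higher fitted level at 7 d than at 2 d, with a median log2 difference of 0.64 and 1 called. The mean log2 level of 6 markers of oligodendrocyte precursors and newly formed oligodendrocytes relative to sham was -0.40 to 0.05 in CVST-2d and 0.29 to 0.79 in CVST-7d, with 3 of 6 called higher at 7 d than at 2 d. That of 8 astrocyte markers was -0.38 to 0.04 and 0.07 to 0.66, with 3 of 8 called higher between the times, and none of these markers was at 0 in any group. That of 12 myelin markers was -0.84 to 0.09 and -0.23 to 0.75, with 1 of 12 called. The 8 astrocyte markers did not move together at 2 d: 3 had a fitted level above sham, 1 of them called, and 5 below. Aldh1l1 had a mean of 48.3 CPM in sham and 83.7 CPM in CVST-2d. The part of all these markers in the desaturase values was not tested. Scd1, the close paralog of Scd2, varied more within groups (181 ± 31.2, 177 ± 66.2 and 195 ± 32.2 CPM) and was highest in CVST-2d replicate 2, at 289 CPM. How reads shared between such paralogs were counted is not given. Acly, which makes cytosolic acetyl-CoA, Acaca, which makes malonyl-CoA, and Fasn, the fatty acid synthase, lay between -0.16 and 0.02 from sham on the log2 scale. Fasn was at 256 ± 24.8, 259 ± 16.3 and 259 ± 7.88 CPM. Of the 8 genes 3, 1 and 3 had an unadjusted p under 0.05 in edgeR in the 3 comparisons (21.5%, 19.5% and 20.8% of all genes tested). DESeq2 called 2, 1 and 3 of the 8, Elovl6 at both times among them (adjusted p 0.0187 in DESeq2 at 2 d). Over the 8 genes the median log2 fold change was -0.14 at 2 d, 0.02 at 7 d and 0.13 between the times. The 2 d median was -0.24 without CVST-2d replicate 2 and -0.08 without sham replicate 2. The 7 d median was -0.01 without sham replicate 1 and 0.065 without sham replicate 2, and that between the times was 0.06 without CVST-7d replicate 1.

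The sterol enzymes were most uneven among the CVST-7d libraries. Their median coefficient of variation was 8.58% in sham, 11.8% in CVST-2d and 21% in CVST-7d, and that of the 8 fatty acid genes was 8.93%, 11% and 7.72%. The value over all genes tested was not computed, so whether the wider spread at 7 d is particular to sterol enzymes is not known. CVST-7d replicate 4, singled out after its values were seen, held the lowest level of all 14 libraries for 14 of the 18 sterol enzymes, and for 18 of all 33 genes (54.5%). It held the lowest level for 13.5% of all genes tested. Sterol enzymes there stood at 46.3% (Fdps) to 101.5% (Ebp) of the sham mean, with a median of 62.9%, and 17 of the 18 were below the sham range. In the other 4 CVST-7d libraries the median was 95.6% of sham. Without replicate 4 the coefficient of variation was 14.8% and the median log2 fold change of the sterol enzymes was -0.07 against sham and -0.15 against CVST-2d, in place of -0.18 and -0.25. Their 7 d median against sham was -0.27 without CVST-7d replicate 2, and their 2 d median was 0.01 without sham replicate 4.

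**Figure D4:**
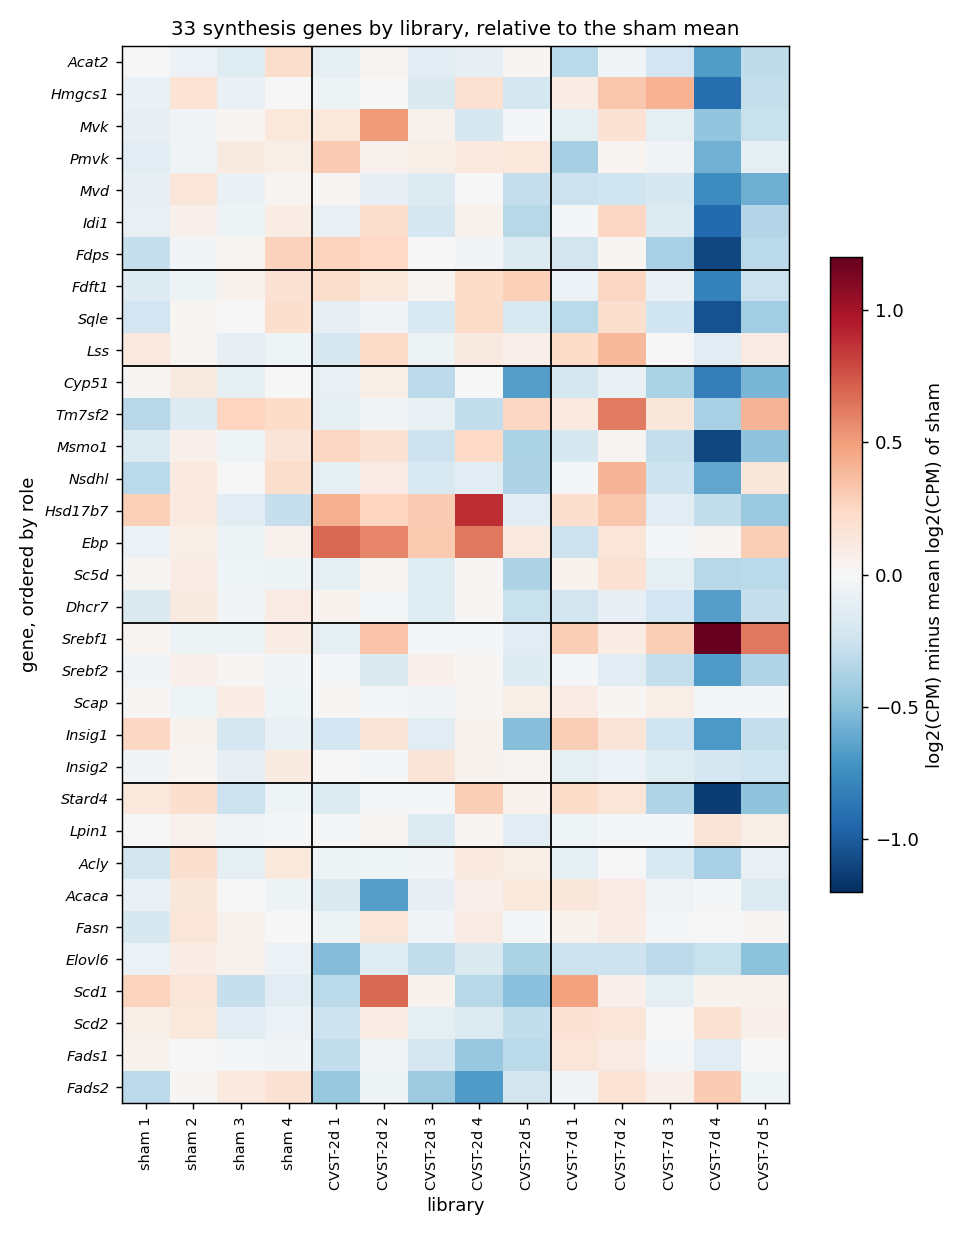
Log2 CPM of the 33 genes (rows, by role) in the 14 libraries (columns), minus the sham mean, from blue (lower) to red (higher). The column of CVST-7d 4 is blue over most sterol enzymes and deep red at Srebf1, which is at 228% of the sham mean there.

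The same library held Stard4 at 44.9%, Insig1 at 61.4% and Srebf2 at 62.4% of the sham mean. Srebf1 was at 228%, the ratio of Srebf1 to Srebf2 was 0.55, Fasn was at 99.2% and Scd2 at 113%. Beside this, its mean log2 marker level relative to sham was 1.43 for microglia, the highest of the 14 libraries, 3.77 for macrophages, 0.75 for myelin, 0.66 for astrocytes and -0.42 for neurons. CVST-7d replicate 5 had the next lowest sterol enzymes, at a mean log2 of -0.22 relative to sham, with microglia at 1.05, macrophages at 5.42 and neurons at -0.30. CVST-7d replicate 2, with macrophages at 0.26, had the highest sterol enzymes of the 14, at 0.16. CVST-2d replicate 2 had macrophages at 4.08 and sterol enzymes at 0.14. The part of cell content in these values was not tested.

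**Figure D5:**
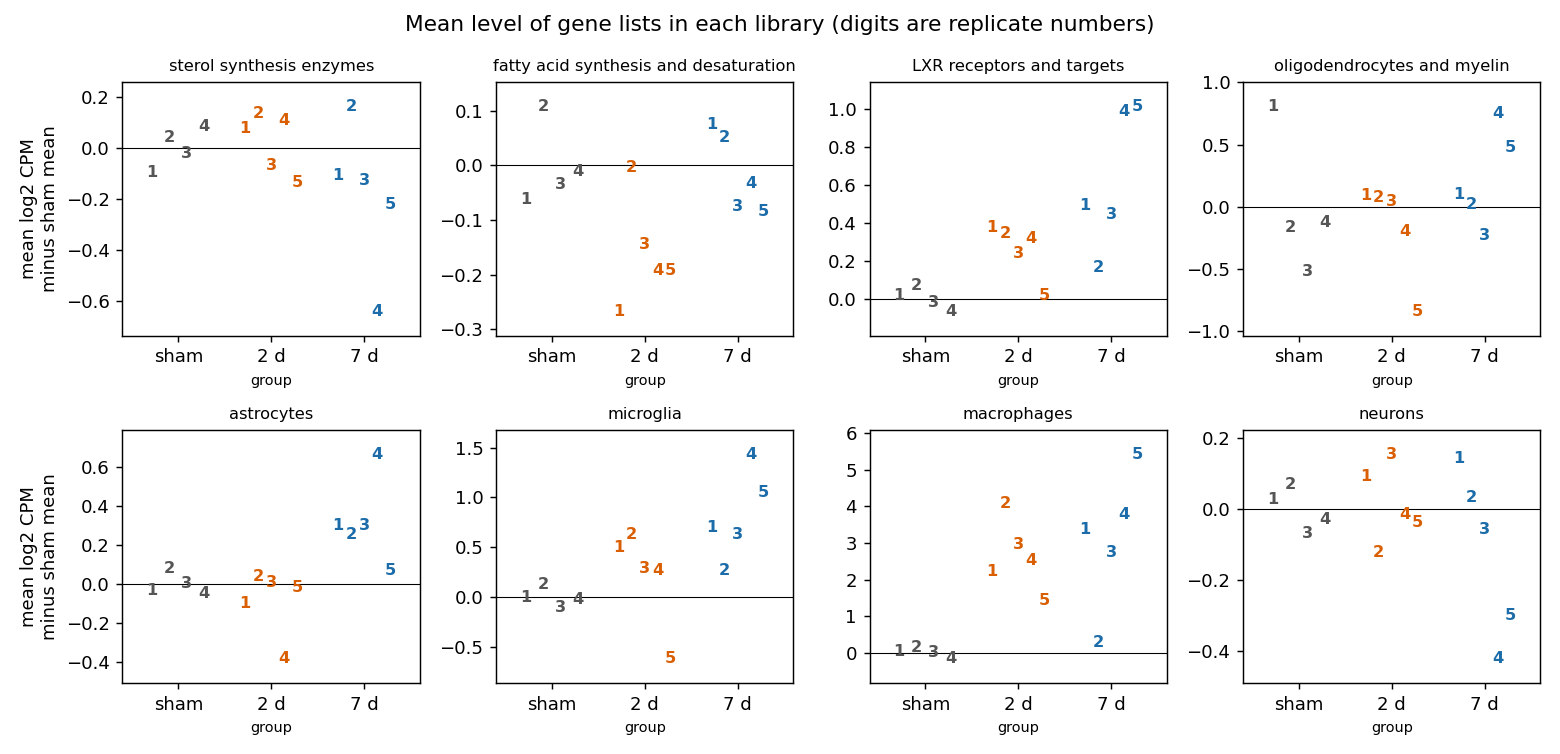
Mean log2 CPM of gene lists in each library minus the sham mean, with digits for the replicate number and grey, orange and blue for sham, CVST-2d and CVST-7d. CVST-7d 4 lies at -0.64 for sterol enzymes, and CVST-7d 4 and 5 are highest for LXR receptors and targets (0.99 and 1.01) and lowest for neurons.

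Genes around these routes were taken as whole lists. Of 10 other sterol synthesis genes 1 was higher at both times, against 2.79% of all genes tested called higher at 2 d and 3.42% at 7 d: Cyb5r3, a reductase that feeds electrons to sterol and fatty acid desaturation. It was at 49.5 ± 2.56 CPM in sham, 77.4 ± 5.63 in CVST-2d and 64.8 ± 6.72 in CVST-7d, with every CVST library above every sham library. Such separation upwards held for 5.65% of all genes tested at 2 d and for 5.8% at 7 d. The log2 difference of Cyb5r3 was 0.65 ± 0.08 at 2 d and 0.39 ± 0.08 at 7 d (adjusted p 0.00433 and 0.0214 in edgeR). The 2 d call held with any single library left out (adjusted p up to 0.0332), and the 7 d call ended without any of the 4 sham libraries or CVST-7d replicate 4 (up to 0.0720). Of 10 genes of SREBP cleavage and sterol-sensing degradation and 21 other genes of fatty acid synthesis and elongation, 0 were called by edgeR in any comparison. At an unadjusted p under 0.05 the counts were 1, 0 and 0 for the former and 2, 2 and 5 for the latter. Of all genes tested, 21.5%, 19.5% and 20.8% were under that threshold. DESeq2 called 0 of the former and 0, 0 and 2 of the latter.

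Of 6 LXR receptors and targets, 0 were called at 2 d by edgeR or DESeq2 (0 at an unadjusted p under 0.05) and 2 were higher at 7 d (3.42% of all genes tested). At an unadjusted p under 0.05 there were 5 at 7 d and 3 between the times (19.5% and 20.8% of all genes tested, and 21.5% at 2 d). DESeq2 called 2 at 7 d and 1 between the times. Abca1, the pump that exports cholesterol to apolipoproteins, was at 35.8, 42.0, 25.4 and 28.1 CPM in sham and at 47.9, 67.8, 44.6, 68.9 and 31.0 CPM in CVST-2d. In CVST-7d it was at 101.6, 51.8, 99.9, 252 and 194.5 CPM, above sham in all 5, as held for 5.8% of all genes tested. The log2 difference at 7 d was 2.10 ± 0.40 (adjusted p 0.0158 in edgeR), and replicates 4 and 5, the libraries with the lowest sterol enzymes, had the most. The call ended without sham replicate 3 or 4 (adjusted p up to 0.0734) and held without any one of the other 12 libraries. Mylip, which targets lipoprotein receptors for breakdown, rose by a log2 of 0.74 ± 0.19 (0.0427), a call that held with 4 of 14 single libraries left out (0.0130 to 0.120).

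Of 10 genes of sterol hydroxylation, esterification and release from lysosomes, 1 was higher at 2 d (2.79% of all genes tested) and 3 at 7 d (3.42%). At an unadjusted p under 0.05 there were 1, 6 and 6 in the 3 comparisons (21.5%, 19.5% and 20.8% of all genes tested), and DESeq2 called 1, 4 and 3. Ch25h, which makes an oxysterol, rose from 0.462 ± 0.404 CPM in sham (0 to 0.970) to 5.49 ± 3.92 in CVST-2d (1.59 to 12.1), a fitted log2 difference of 3.54 ± 0.85 (adjusted p 0.0374 in edgeR). At 7 d the lysosomal genes Npc1 (0.56 ± 0.13, 0.0301), Npc2 (1.01 ± 0.24, 0.0356) and Lipa (1.21 ± 0.32, 0.0494), which free cholesterol from endocytosed lipid, were higher. Of 13 fatty acid oxidation genes 1 was higher at 7 d (3.42% of all genes tested), Cpt1a, which lets fatty acids into mitochondria (0.64 ± 0.16, 0.0370). For oxidation there were 1, 5 and 2 at an unadjusted p under 0.05, beside the same shares of all genes tested, and DESeq2 called 0, 2 and 1. None of the genes of these 3 lists was called between the times by edgeR.

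Most of these calls depended on single libraries. Without CVST-7d replicate 4, and likewise without replicate 5, the 7 d calls of Npc1, Npc2, Lipa, Cpt1a and Mylip ended, and they ended without any of sham replicates 2, 3 and 4. The call of Ch25h ended without any of the 4 sham libraries or CVST-2d replicates 2, 3 or 4. Of 14 single libraries left out, the call held in 7 for Ch25h (adjusted p 0.0231 to 0.120 in edgeR), 9 for Npc1 (0.00611 to 0.109), 6 for Npc2 (0.00670 to 0.120), 6 for Cpt1a (0.00910 to 0.129) and 2 for Lipa (0.0108 to 0.140). All log2 differences kept their sign, the lowest being 0.45 for Npc1. Lipa was at 43.4 and 82.7 CPM in CVST-7d replicates 4 and 5, the libraries with the highest microglial markers, and at 20.5 CPM in replicate 2, the library of CVST-7d with the lowest macrophage markers. The part of cell content in these values was not tested.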

How the data were processed

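RNA of 14 cortex samples was sequenced from libraries made with the NEBNext Ultra kit, per the labels' protocols. The submitters' processing notes name fastp, HISAT2, DESeq2 1.16.1 and build mm39; the counting tool, annotation release and strand setting are unstated. The authors deposited read counts per gene and FPKM values, which scale counts to gene length and library size. Of 55894 entries, 535 without an Ensembl gene (0.203% to 0.278% of counts) were left out.

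All 14 samples were fitted as group means in edgeR 4.0.16 (R 4.3.3) with TMM factors (0.962 to 1.04), filterByExpr and the robust quasi-likelihood test. Its p-values (2-sided) were adjusted by Benjamini and Hochberg's method across 16918 genes, with a call at an adjusted p under 0.05. SE is the log2 fold change over the root of F, and CPM are TMM-scaled. Log2 levels of lists used a prior count of 2. The code was tested on simulated counts. Alternatives were DESeq2 1.42.0, limma 3.58.1 voom, other filters, scalings and sample sets, and a replicate block. PCR reads are not independent molecules, and depth limits counting error only. The genes and lists were chosen with earlier results of these data known. Full values are given for genes called and for those of smallest unadjusted p up to 10, and of other lists for the genes called, at most 4 each. Libraries singled out were chosen after their values were seen.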

Additional observations from a re-analysis of the deposited data

Results flagged for a closer look

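A library lying far from the rest of its own group was looked for in 99 groups of values (33 genes in 3 groups), and 3 were found; chance alone gives about 1 in 20. Elovl6 was at 44.68 CPM in CVST-7d replicate 5, the lowest, with the other 4 CVST-7d libraries at 50.6 to 52.8 CPM. Scd1 was at 250.4 CPM in CVST-7d replicate 1, the highest, with the others at 166.7 to 186.3 CPM. Srebf1 was at 40.82 CPM in CVST-2d replicate 2, the highest, with the others at 29.6 to 31.9 CPM. In that library Scd1 was also highest of its group, at 289 CPM, and macrophage markers were the highest of the 5 CVST-2d libraries, at a mean log2 of 4.08 relative to sham.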

How the results depend on the processing

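Over 23 alternatives and 2277 recomputed log2 differences of the 33 genes, 0 called values changed sign, and 99 uncalled ones did, the largest of size 0.13. The call of Elovl6 at 7 d held in 10 alternatives and ended in 13. In the order CVST-2d against sham, CVST-7d against sham and CVST-7d against CVST-2d, the counts of the 33 genes and of all genes called were 0, 1, 0 and 625, 715, 459. DESeq2's Wald test gave 3, 3, 6 and 1528, 1386, 1280, and voom with sample weights gave 3, 1, 3 and 2599, 861, 1234. Without a filter on low counts there were 0, 0, 0 and 422, 432, 321, and with a CPM over 1 in at least 4 samples 0, 0, 0 and 648, 720, 471. Fitting the groups compared alone gave 0, 1, 0 and 781, 533, 92. Without CVST-2d replicate 5 and CVST-7d replicate 2 together there were 1, 3, 2 and 2103, 1304, 898. Leaving out single libraries gave 0 to 2, 0 to 3 and 0 to 2 of the 33 genes, and 35 (without sham replicate 3) to 1934 (without CVST-2d replicate 5), 94 (without sham replicate 3) to 1031 (without CVST-7d replicate 2) and 167 (without CVST-2d replicate 1) to 1295 (without CVST-2d replicate 5) of all genes. The cause of these shifts was not tested. With the replicate number as a replicate block there were 0, 0, 0 and 287, 59, 81, and the Elovl6 call at 7 d ended (adjusted p 0.126 in edgeR). Of 13 pairs of same-numbered libraries, 2 correlated over 0.1 in their deviations (r from -0.44 to 0.28). No reference was used here to judge these correlations by, so they cannot exclude a shared batch or pairing. The labels name no pairing, and the main fit treated the numbers as names. The edgeR fit without robust estimation, added after the data were seen, kept the call of Elovl6 and gave 0, 1, 0 of the 33 genes. FPKM rebuilt from counts lay within 1 SD of the deposited sham mean for 28 of the 33 genes.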
